A study of Homo sapiens with 30 samples.

Results

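The effect of enzalutamide on gene expression was compared between 2 prostate cancer cell lines, V16D and MR49F, in medium with full serum. The quantity tested for each gene was the difference between the lines in their response, that is, the log2 fold change of enzalutamide over vehicle in MR49F minus the same fold change in V16D. It rested on 12 of the 30 RNA-seq samples, with 3 replicates each of V16D with vehicle, V16D with enzalutamide, MR49F with vehicle and MR49F with enzalutamide. V16D is a castration-resistant derivative of LNCaP cells, and MR49F is an LNCaP derivative selected for growth under the drug in castrated hosts. Each is 1 line, so the many differences between the lines cannot be told apart. All cells had been kept for 96 h without enzalutamide (MDV3100) before they received either 10 µM of the drug or DMSO for 24 h in 10% serum. Before that, the study describes routine culture with 10 µM enzalutamide for MR49F only. The MR49F vehicle samples thus followed withdrawal of the drug and its enzalutamide samples a renewed exposure. This history cannot be told apart from the other differences between the lines. A further 9 samples of MR49F in 10% charcoal-stripped serum, with 3 each of vehicle, 1 nM dihydrotestosterone (DHT) and 10 µM enzalutamide, played no part in sorting the genes and were used to describe the sorted genes in separate samples. Those cells spent 72 h in stripped serum first, and the DHT and enzalutamide comparisons there share their vehicle samples.

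Androgens raise the transcription of genes for secreted prostate proteins, lipid and glycan synthesis and growth in prostate epithelium, and they lower a smaller set. Enzalutamide is a drug against prostate cancer that competes with androgen and blocks this response. Charcoal stripping removes most steroid from serum, so full serum contains androgen that the drug has to compete with, and stripped serum contains little.

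The full-serum samples had 13170504 to 21154962 reads on genes. The stripped-serum samples had 1059382 to 1702742, since only 5.13 to 7.51% of their uniquely aligned reads were assigned to a gene. Small changes of weakly expressed genes were not detectable there at this depth. Why the share was so low was not tested, so CPM levels are compared only within each serum. Levels below are CPM, which are read counts scaled to the normalized library size, one value per sample in the order of the replicate numbers. All 8 luminal prostate markers were present in full serum (summed level 3397 to 5898 CPM) and the basal markers KRT5, KRT14 and TP63 summed to at most 0.71 CPM. The stromal list summed to 7.59 to 12.8 CPM, mostly from COL1A1 and, in MR49F, also from LUM, which was at 0.607 to 1.58 CPM with vehicle and 3.19 to 4.33 CPM with enzalutamide there. The part of this in the MR49F results was not tested. The endothelial list summed to 2.43 to 8.16 CPM with CDH5 at 0, and the immune list to 6.35 to 16.9 CPM, almost all from CD68, with CD3E and MS4A1 at 0. Replicate 1 of MR49F with vehicle stood apart from the other replicates of its group, with a chi-square per degree of freedom over genes of 9.87 and 11.6 against them, where they differed from each other by 2.24 and all other full-serum replicate pairs by 1.25 to 1.69. The counts below are therefore also given without it. The study calls the replicates biological and the labels speak of triplicate wells, so the p-values measure the spread between these samples, which may be partly technical.

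Of 14471 genes tested, 1006 responded to enzalutamide differently in the 2 lines at an adjusted p of at most 0.05 (edgeR quasi-likelihood test), which is 6.95%. The difference was positive for 607 genes, or 4.19%, and negative for 399, or 2.76%. Within the lines, V16D showed a higher level with enzalutamide for 2565 of 14079 genes (18.2%) and a lower one for 2711 (19.3%), and MR49F showed 537 of 13927 higher (3.86%) and 644 lower (4.62%). The V16D replicates varied less than those of MR49F, with a biological coefficient of variation of 1.83% against 5.25%, so smaller changes passed the test in V16D. A gene called in 1 line only was for that reason placed in a class only if the difference between the lines was itself called. Fewer cells expressing a gene and less RNA per cell cannot be told apart in these bulk samples.

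The genes fell into 6 classes. In 643 genes (4.44%) the V16D response was lost, which here means that V16D responded, MR49F did not pass the test and the lines differed. In 211 genes (1.46%) it was reduced, with both lines moving in 1 direction and MR49F by less. In 719 genes (4.97%) it was kept, with both lines called in 1 direction and no called difference, which does not show that the responses were equal. In 16 genes (0.111%) it was larger in MR49F, and in 33 (0.228%) the lines moved in opposite directions. In 69 (0.477%) it was new, which here means that MR49F responded, V16D did not pass the test and the lines differed. V16D changes in the new class reached 0.74 in size on the log2 scale. A further 3654 genes were called in V16D only and 132 in MR49F only without a called difference, and they are unresolved. In 33 more the lines differed with neither line called, 1 gene (TMEM100) met no definition and 8960 had no call. Without replicate 1 of MR49F with vehicle, 1523 genes differed between the lines, and the classes held 798 lost, 394 reduced, 1349 kept, 38 larger, 166 new and 82 opposite genes. Of the classes above, 483 lost, 207 reduced, 648 kept, 15 larger, 68 new and 33 opposite genes stayed where they were. In that smaller set of libraries MR49F had 2533 called genes in place of 1181.

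**Figure D1:**
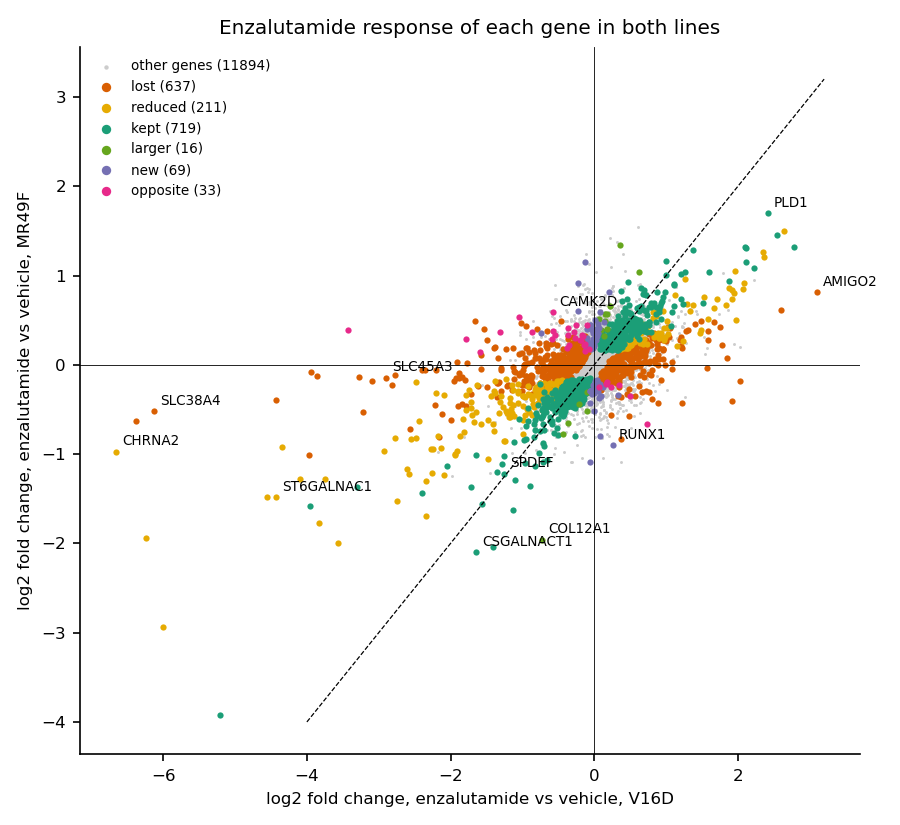
Each point is 1 gene tested in both lines, placed by its log2 fold change with enzalutamide in V16D (horizontal) and in MR49F (vertical) and coloured by class. Lost genes such as SLC45A3 (-2.90 in V16D and -0.14 in MR49F) lie near the horizontal zero line, kept genes such as SPDEF (-1.25 and -1.22) near the diagonal, and reduced genes such as ST6GALNAC1 (-4.42 and -1.48) between them.

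KLK3 and SPDEF, a lost and a kept gene that are both androgen-regulated, show the contrast between classes. KLK3 encodes prostate-specific antigen and lies on chromosome 19 from 51358171 to 51364020 (GRCh37). SPDEF is an ETS transcription factor of secretory epithelium and lies on chromosome 6 from 34505579 to 34524110. Their promoters, taken as the 250 bases before the gene's start in RefSeq (GRCh38.p14), are shown because one holds and one lacks letters found in steroid hormone response elements. The capitals mark AGAACA, which was searched on both strands (TGTTCT on the other).
KLK3 promoter, chr19:50854665-50854914, plus strand: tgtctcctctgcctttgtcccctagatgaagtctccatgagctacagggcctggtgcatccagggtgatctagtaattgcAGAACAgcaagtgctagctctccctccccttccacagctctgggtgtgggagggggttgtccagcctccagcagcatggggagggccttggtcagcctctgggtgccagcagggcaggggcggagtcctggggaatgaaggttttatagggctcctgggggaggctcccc
SPDEF promoter, chr6:34556330-34556579, minus strand: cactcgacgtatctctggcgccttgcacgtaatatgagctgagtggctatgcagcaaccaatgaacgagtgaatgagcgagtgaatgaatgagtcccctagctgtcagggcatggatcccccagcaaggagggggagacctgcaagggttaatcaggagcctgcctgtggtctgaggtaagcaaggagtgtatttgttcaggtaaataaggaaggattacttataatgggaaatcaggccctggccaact

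In KLK3 the letters start 170 bases before the gene's start, and the SPDEF window does not hold them. The shares of promoters with these letters were not tested between classes. They were held by 7.25% of the 276 promoters of lost genes that were lower in V16D, by 7.69% of 104 for reduced and by 8.33% of 312 for kept genes of that direction. Over all 10182 tested genes with a promoter in the table the share was 7.39%, and over all 27305 promoters it was 12.4%. The shares were 6.67% of 195 for lost and 10.5% of 228 for kept genes that were higher in V16D. A match is a description of letters and not of a binding site, and its absence says nothing on binding elsewhere.

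KLK3 stood at 917, 924 and 922 CPM in V16D with vehicle and at 251, 252 and 245 CPM with enzalutamide. In MR49F it stood at 1994, 1739 and 1777 CPM with vehicle and 1760, 1645 and 1751 CPM with enzalutamide. The V16D groups were far apart, while the MR49F groups overlapped and both lay above every V16D sample. The log2 fold change was -1.89 in V16D and -0.09 in MR49F, a difference of 1.79 ± 0.06 (SE, n = 3 per group; edgeR adjusted p = 4.9e-14). SPDEF stood at 135, 138 and 135 CPM with vehicle and 56.8, 56.4 and 58.6 CPM with enzalutamide in V16D. In MR49F it stood at 219, 211 and 200 CPM and at 87.2, 91.8 and 90.4 CPM. SPDEF fell in both lines, with no overlap between vehicle and enzalutamide in either. The fold changes of -1.25 and -1.22 differed by 0.02 ± 0.06 (edgeR adjusted p = 0.891).

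TMPRSS2, a serine protease of the prostate epithelium whose androgen-driven promoter is fused to ERG in many prostate cancers (chromosome 21 from 42836227 to 42903043), lay between these cases. It stood at 351, 341 and 335 CPM with vehicle and 58.1, 63.4 and 63.4 CPM with enzalutamide in V16D, and at 541, 509 and 501 CPM and 442, 456 and 457 CPM in MR49F. The drop in MR49F was small but without overlap. The log2 fold changes were -2.48 and -0.19, and the MR49F value passed the test narrowly (edgeR adjusted p = 0.0255). The lines differed by 2.28 ± 0.06 (edgeR adjusted p = 4.4e-16). MYC, which drives cell growth, was at 225 to 229 CPM and 224 to 234 CPM in V16D and at 334 to 420 CPM and 342 to 346 CPM in MR49F. Its groups overlapped in both lines (edgeR adjusted p of the difference = 0.475).

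**Figure D2:**
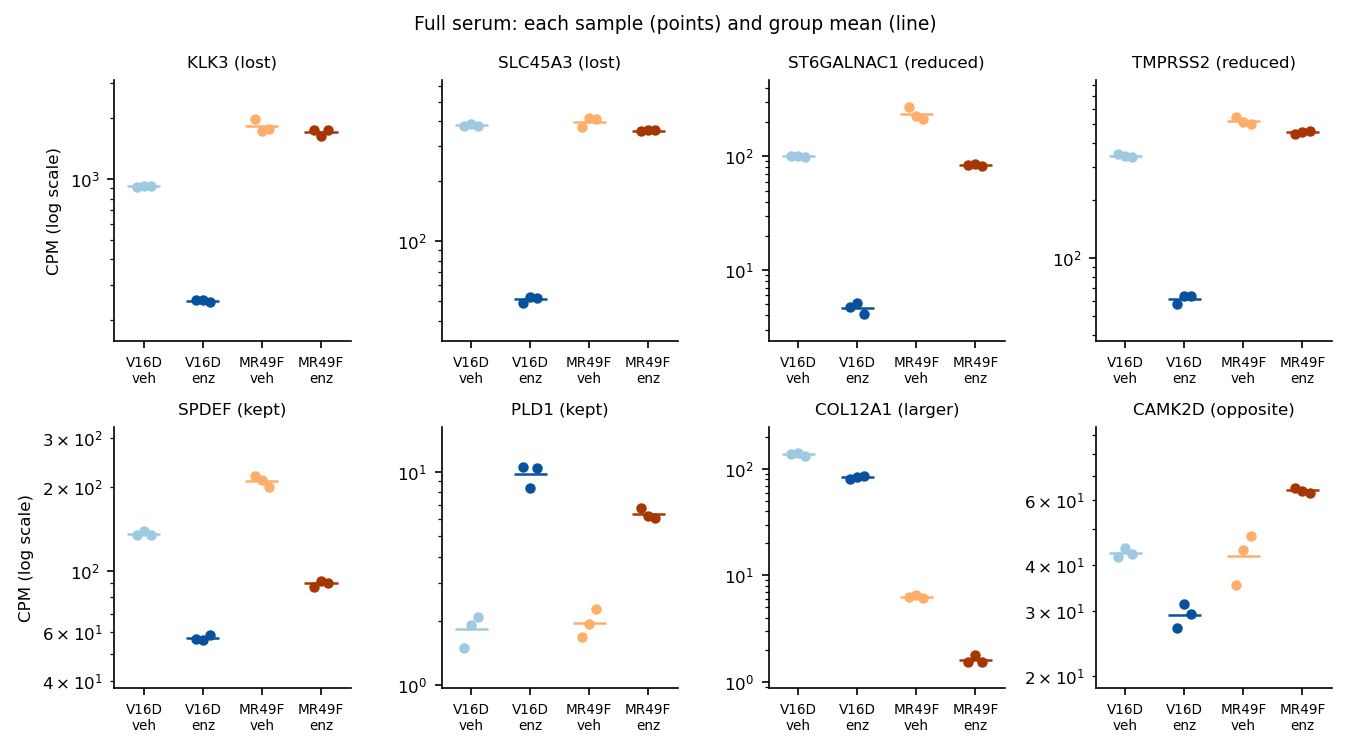
CPM on a log scale for 8 genes in the 12 full-serum samples, with vehicle in the lighter and enzalutamide in the darker colour of each line; points are samples and lines are group means (n = 3), and each panel has its own range. KLK3, SLC45A3, ST6GALNAC1 and TMPRSS2 dropped further in V16D than in MR49F, SPDEF and PLD1 moved in both lines, COL12A1 dropped further in MR49F and CAMK2D moved in opposite directions.

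The lost class held 367 genes that were lower and 276 that were higher with enzalutamide in V16D. Their median log2 fold changes were -0.49 and 0.44 in V16D and 0.00 and 0.02 in MR49F, which describes how they were chosen. At least 2-fold changes in V16D were found in 69 of the lower and 27 of the higher genes, so most lost responses were modest. Of the 643 genes, 6 had too few reads in MR49F to be tested there. SLC45A3 (prostein, a prostate-restricted membrane transporter; chromosome 1 from 205626979 to 205649637) stood at 379, 387 and 378 CPM with vehicle and 49.2, 52.5 and 51.8 CPM with enzalutamide in V16D, against 372, 414 and 409 CPM and 356, 361 and 361 CPM in MR49F. With vehicle the lines overlapped, and with enzalutamide V16D lay far below MR49F. The lines differed by 2.75 ± 0.06 (edgeR adjusted p = 3.86e-17).

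SLC38A4, a sodium-coupled amino acid transporter on chromosome 12 from 47158544 to 47226191, nearly disappeared from V16D. It had 121, 144 and 146 reads with vehicle and 1, 3 and 2 with enzalutamide, a 74.2-fold drop with a 95% counting interval of 33.8 to 203, which covers counting error only. MR49F had 19, 25 and 11 reads with vehicle and 12, 15 and 21 with enzalutamide, so the lost response there started from a level already well under that of V16D (difference 5.60 ± 0.46, edgeR adjusted p = 3.5e-08). ADAM7, a membrane protein of the ADAM family, showed the reverse starting point. It went from 4.52, 3.98 and 4.05 CPM to 0.31, 0.179 and 0.303 CPM in V16D, a 15.7-fold drop (counting interval 9.14 to 29.2). In MR49F it was at 73.9, 75.9 and 79.7 CPM with vehicle and 73.2, 73.6 and 69.5 CPM with the drug, far above V16D in every sample. The difference between the lines was 3.85 ± 0.23 (edgeR adjusted p = 3.82e-10).

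KLK2, the kallikrein next to KLK3, had 139, 135 and 141 CPM with vehicle and 20.1, 21.2 and 19.7 CPM with enzalutamide in V16D. MR49F had 545, 575 and 567 CPM and 515, 525 and 510 CPM. The MR49F groups were apart by a small step that was not called, and the lines differed by 2.65 ± 0.06 (edgeR adjusted p = 3.86e-17). KLK2 and KLK3 are close relatives, so a share of their reads may be assigned to the wrong one. The other lost decreases named by size were in NNMT (nicotinamide N-methyltransferase), SEMA6D (an axon guidance ligand) and SLC15A2 (a peptide transporter), with log2 fold changes of -3.22, -3.10 and -2.81 in V16D and -0.53, -0.18 and -0.23 in MR49F. None of these passed the test in MR49F, although all 3 values were below 0.

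Lost increases included cell surface and matrix proteins and transcription factors. COLEC12, a scavenger receptor, stood at 8.52, 8.07 and 7.91 CPM with vehicle and 23.9, 23.7 and 26.2 CPM with enzalutamide in V16D, and at 2.73, 2.88 and 2.88 CPM and 4.13, 3.33 and 3.61 CPM in MR49F. The MR49F samples did not overlap either, but the rise of 0.38 was not called there (edgeR adjusted p = 0.146), and the lines differed by -1.22 ± 0.17 (edgeR adjusted p = 5.27e-05). CBLN2, a synaptic organiser, went from 20.7, 19.6 and 19.99 CPM to 59.6, 59.0 and 62.1 CPM in V16D and was at 2.18 to 3.0 CPM in all MR49F samples (difference -1.30 ± 0.17, edgeR adjusted p = 1.72e-05). SOX9, a transcription factor of prostate development, went from 7.88, 9.37 and 7.73 CPM to 27.5, 27.6 and 28.9 CPM in V16D. MR49F had only 17 reads of SOX9 over 3 vehicle libraries and 19 over 3 enzalutamide libraries, a ratio of 0.89 with a counting interval of 0.438 to 1.82, so a response of the V16D size was not seen at a level near the limit of detection. AMIGO2 and VWA2, an adhesion and a matrix protein, and the homeobox gene HOXC9 rose in V16D by 3.10, 1.67 and 1.77 on the log2 scale. They were at 0.81, 0.48 and 0.22 in MR49F, without passing the test.

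The reduced class held 141 genes lower and 70 higher in V16D, with medians of -1.12 and 0.90 in V16D and -0.41 and 0.40 in MR49F. At least 2-fold changes were found in 104 of the 211 in V16D and in 22 in MR49F, against 96 of the 643 lost genes in V16D. ST6GALNAC1, a sialyltransferase that makes the sialyl-Tn antigen (chromosome 17 from 74620843 to 74639868), stood at 101, 101 and 98.6 CPM with vehicle and 4.75, 5.13 and 4.12 CPM with enzalutamide in V16D. In MR49F it stood at 271, 225 and 211 CPM and at 83.5, 85.9 and 82.0 CPM. Every MR49F sample with enzalutamide was thus well below its vehicle group and far above the V16D level with the drug (difference 2.93 ± 0.13, edgeR adjusted p = 2.72e-12).

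CHRNA2, a nicotinic acetylcholine receptor subunit, fell from 212, 240 and 236 reads to 3, 2 and 2 in V16D, a 106-fold drop with a counting interval of 51.4 to 266. In MR49F it went from 22.4, 22.4 and 20.5 CPM to 12.1, 11.7 and 9.65 CPM, a log2 fold change of -0.97 without overlap (difference between the lines 5.67 ± 0.27, edgeR adjusted p = 6.51e-12). TRPM8, the cold-sensing ion channel, went from 68.1, 66.2 and 66.8 CPM to 4.85, 4.23 and 5.08 CPM in V16D and from 32.1, 38.5 and 41.0 CPM to 11, 11 and 10.7 CPM in MR49F. Its drop was large in both lines and larger in V16D by 2.05 ± 0.13 (edgeR adjusted p = 9.62e-10). CCDC141 and ADH1C, a coiled-coil protein and an alcohol dehydrogenase, fell 78.9-fold (39.8 to 184) and 67.8-fold (30.9 to 186) in V16D by reads, and by 1.94 and 2.94 on the log2 scale in MR49F. SNAI2, a repressor known from epithelial-mesenchymal transition, had a log2 fold change of -4.56 in V16D and -1.48 in MR49F, where its level with vehicle was only 2.05, 1.52 and 1.71 CPM.

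The kept class held 410 genes lower and 309 higher, with medians of -0.28 and 0.33 in V16D and -0.28 and 0.34 in MR49F. Only 39 of the 719 changed at least 2-fold in V16D, and 34 did in MR49F. CSGALNACT1, which starts chondroitin sulfate chains, went from 9.62, 8.19 and 9.44 CPM to 2.74, 3.34 and 2.66 CPM in V16D and from 9.71, 8.91 and 7.62 CPM to 2.20, 1.58 and 2.33 CPM in MR49F. The groups were apart in both lines at nearly the same levels, and the log2 fold changes of -1.64 and -2.1 differed by -0.46 ± 0.22 (edgeR adjusted p = 0.249). TNFAIP8, a regulator of cell survival, went from 19.3, 20.9 and 21.9 CPM to 8.88, 8.46 and 6.90 CPM and from 16.5, 13.7 and 14.5 CPM to 6.33, 5.92 and 6.99 CPM. Its difference was 0.15 ± 0.15 (edgeR adjusted p = 0.632).

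DLG2 and CADM2, a synaptic scaffold and an adhesion protein, fell by 1.71 and 2.06 in V16D and by 1.36 and 1.13 in MR49F on the log2 scale. For NPPC, the C-type natriuretic peptide, the class says little, because V16D had only 20, 17 and 21 reads with vehicle and 5, 1 and 0 with enzalutamide (10.5-fold, counting interval 4.53 to 29.7), while MR49F had 13.4, 11 and 9.72 CPM and 3.60, 5.02 and 4.38 CPM. Among the kept increases, PLD1, a phospholipase that makes phosphatidic acid (chromosome 3 from 171318194 to 171528740), rose from 1.49, 1.90 and 2.08 CPM to 10.5, 8.40 and 10.4 CPM in V16D and from 1.67, 1.92 and 2.26 CPM to 6.73, 6.18 and 6.04 CPM in MR49F. All vehicle samples of both lines overlapped and all drug samples lay above them. The rises of 2.41 and 1.70 differed by -0.73 ± 0.24, which missed the threshold (edgeR adjusted p = 0.086). SDK2, SI, IL1RN and LPPR1 (an adhesion protein, the sucrase-isomaltase enzyme, the interleukin-1 receptor antagonist and a phospholipid phosphatase-related protein) rose by 1.60 to 2.11 in V16D and by 1.04 to 1.32 in MR49F. DOCK10, an activator of small GTPases, rested on 11 reads with vehicle and 45 with enzalutamide over 3 V16D libraries each, a ratio of 3.78 (1.92 to 8.10), and went from 4.63, 3.89 and 3.97 CPM to 8.67, 7.87 and 7.37 CPM in MR49F. These 6 increases were chosen for their size in V16D, and in each the MR49F value was the smaller one without a called difference.

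In the class with the larger MR49F response, 6 genes were lower and 10 higher, and none changed 2-fold in V16D. COL12A1, a fibril-associated collagen on chromosome 6 from 75794042 to 75915983, stood at 137, 141 and 134 CPM with vehicle and 80.4, 85.1 and 85.3 CPM with enzalutamide in V16D. MR49F had 6.22, 6.60 and 6.14 CPM and 1.53, 1.80 and 1.52 CPM. The relative decrease was larger in MR49F by 1.25 on the log2 scale (-1.25 ± 0.14, edgeR adjusted p = 2.92e-06) at a level far below that of V16D, and with FPKM values and a pseudocount of 1 the sign of the difference turned (0.24). PKIB, an inhibitor of protein kinase A, rose from 8.12, 8.46 and 10.3 CPM to 21.9, 23.2 and 22.3 CPM in MR49F and went from 3.94, 3.98 and 5.03 CPM to 5.11, 5.25 and 6.29 CPM in V16D. Its rise was larger in MR49F by 0.98 ± 0.17 (edgeR adjusted p = 0.000604). NCAPD3, a condensin II subunit, went from 218, 219 and 217 CPM to 170, 173 and 167 CPM in V16D and from 238, 240 and 247 CPM to 150, 151 and 158 CPM in MR49F (difference -0.30 ± 0.05, edgeR adjusted p = 0.000506). RNF144B and FAM117B rose and ARID5B fell in both lines, with differences of 0.41, 0.43 and -0.36.

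New responses were few and small. Of the 69 genes, 39 were higher and 30 lower in MR49F, and 2 changed at least 2-fold. RUNX1, a runt-domain transcription factor on chromosome 21 from 36160098 to 37376965, stood at 17.5, 16.9 and 14.2 CPM with vehicle and 8.73, 8.56 and 8.65 CPM with enzalutamide in MR49F. V16D had 6.07, 5.34 and 6.62 CPM and 6.61, 7.81 and 7.20 CPM. MR49F thus dropped toward the V16D level while the V16D groups overlapped, and the lines differed by -1.17 ± 0.15 (edgeR adjusted p = 2.03e-05). GADD45G, a stress-response gene, showed a like pattern with 15.6, 17.6 and 17.2 CPM going to 8.94, 10.6 and 9.46 CPM in MR49F and 7.87 to 9.50 CPM in all V16D samples (difference -0.88 ± 0.13, edgeR adjusted p = 0.000133). PLXDC1, TMC5, SLC16A10 and SLC16A9 (2 membrane proteins and 2 monocarboxylate transporter family members) rose by 1.15, 0.92, 0.82 and 0.59 in MR49F, and their V16D values of -0.13, -0.22, 0.21 and 0.08 did not pass the test. The call of the SLC16A10 difference was lost in 10 of the alternative settings or left-out libraries.

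Among the 33 opposite genes, 26 were lower in V16D and higher in MR49F. CAMK2D, a calcium/calmodulin-dependent kinase on chromosome 4 from 114339210 to 114683083, went from 42.1, 44.6 and 43.0 CPM to 27.1, 31.3 and 29.4 CPM in V16D and from 35.3, 43.9 and 48.1 CPM to 64.7, 63.6 and 62.9 CPM in MR49F. The lowest MR49F vehicle value is that of replicate 1. With vehicle the lines overlapped and with the drug they were apart (difference 1.15 ± 0.11, edgeR adjusted p = 2.59e-07, and 1.05 without replicate 1 of MR49F with vehicle). NPC1, which exports cholesterol from lysosomes, went from 39.0, 37.9 and 39.4 CPM to 31.4, 32.7 and 33.3 CPM in V16D and from 104, 123 and 126 CPM to 162, 162 and 156 CPM in MR49F (difference 0.70 ± 0.09, edgeR adjusted p = 1.26e-05). PTGFR, the prostaglandin F receptor, and RELN, a secreted matrix protein, also went down in V16D and up in MR49F, with differences of 0.54 and 0.78. NPR3, the clearance receptor for natriuretic peptides, went from 2.20, 2.31 and 1.84 CPM to 0.62, 1.01 and 1.51 CPM in V16D and from 5.77, 5.47 and 6.14 CPM to 9.27, 7.98 and 7.85 CPM in MR49F. CHST2, a sulfotransferase, moved the other way, with 0.84, 1.48 and 1.78 CPM going to 2.27, 2.74 and 1.88 CPM in V16D and 11.8, 11.7 and 10.3 CPM to 7.53, 6.39 and 7.47 CPM in MR49F (difference -1.40 ± 0.26, edgeR adjusted p = 0.00139).

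Lists of genes by function describe what the classes contained. Counts are set against the 6.95% of all tested genes with a called difference. Of 37 tested androgen-induced targets, 32 differed between the lines (86.5%), 31 of them in the positive direction. The V16D response was lost in 12, including KLK4, PMEPA1 (a feedback inhibitor of TGF-beta signalling), AZGP1 and ZBTB16, and reduced in 19, including FKBP5 (a co-chaperone of steroid receptors), NDRG1, ABCC4 and ELL2. The median log2 fold change of the list was -1.79 in V16D and -0.32 in MR49F. FKBP5 and MAF still fell more than 2-fold in MR49F, with -2.09 and -1.24 for FKBP5 and -2.74 and -1.53 for MAF. Only SGK1 and STEAP4 were kept, STEAP2 was new (-0.03 and 0.20), and ACPP, prostatic acid phosphatase, went against the list with rises of 1.58 and 0.52. Members of the list are classical targets known to fall with enzalutamide, so its direction is no independent evidence. Of 11 tested androgen-repressed genes, 8 rose in V16D and 4 in MR49F, and 2 differed. OPRK1, the kappa opioid receptor, went from 13.0, 13.5 and 11.9 CPM to 49.2, 46.2 and 50.0 CPM in V16D and from 5.61, 4.74 and 5.52 CPM to 8.67, 7.87 and 9.51 CPM in MR49F. CAMK2N1, an inhibitor of the kinase family of CAMK2D, rose by 1.67 and 0.64.

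Called differences in lipid and glycan synthesis were more often classed as reduced than as lost, a split set by whether MR49F passed its test. Of 34 sterol and fatty acid genes, 26 were lower in V16D and 10 in MR49F, and 9 differed, all positively (26.5%). ACSL3, which activates long-chain fatty acids, stood at 1298, 1240 and 1248 CPM and 341, 344 and 350 CPM in V16D and at 1162, 1168 and 1166 CPM and 669, 662 and 671 CPM in MR49F. More than 1 log2 unit separated the responses (1.07 ± 0.04, edgeR adjusted p = 8.88e-13), although MR49F still dropped without overlap. ELOVL5, ACACA and FDFT1 (fatty acid elongation, the first step of fatty acid synthesis, and a step of the sterol pathway), among others, were reduced as well, and CYP51A1, IDI1 and MSMO1, with V16D changes of only -0.17 to -0.25, were lost. Of 16 glycosylation genes, 14 were lower in V16D and 6 in MR49F, and 6 differed (37.5%), all positively. UAP1, which makes UDP-N-acetylglucosamine, went from 433, 416 and 422 CPM to 173, 169 and 168 CPM in V16D and from 363, 376 and 390 CPM to 265, 251 and 257 CPM in MR49F (difference 0.77 ± 0.05, edgeR adjusted p = 2.66e-09). GALNT7 and GCNT1, both enzymes of O-glycan synthesis, were reduced too, and B4GALT1 and EDEM3 were lost.

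Among genes for protein folding in the endoplasmic reticulum most called differences were classed as lost. Of 27 unfolded protein response genes, 25 were lower in V16D, 6 were lower and 1 higher in MR49F, and 10 differed, all positively (37%). SEL1L, DERL3, SDF2L1, CRELD2, DNAJB9, DNAJC3, HSP90B1 and XBP1 were lost, HERPUD1 was reduced and EDEM1 was opposite. Lost and reduced genes differ in whether MR49F passed its test, not in how much of the response remained. DNAJB9 (-0.53 and -0.20) and DNAJC3 (-0.51 and -0.20), both lost, lay close to HERPUD1 (-0.55 and -0.215). XBP1 (-0.08 and 0.20) changed more in MR49F, without passing the test there. The call of the DERL3 difference was lost in 11 of the alternative settings or left-out libraries. SDF2L1, an ER chaperone cofactor, stood at 29.4, 31.1 and 30.2 CPM and 22.2, 22.1 and 21.7 CPM in V16D and at 33.3, 42.0 and 41.7 CPM and 36.3, 37.1 and 39.8 CPM in MR49F, where the groups overlapped. EDEM1, which sends misfolded glycoproteins to degradation, went from 154, 155 and 153 CPM to 138, 132 and 142 CPM in V16D and from 183, 202 and 211 CPM to 246, 249 and 256 CPM in MR49F (difference 0.50 ± 0.06, edgeR adjusted p = 1.93e-05). Without replicate 1 of MR49F with vehicle, 16 genes of this list differed, and 17 of the sterol list differed positively and 1 negatively. With other libraries left out as few as 5 of the unfolded protein response list differed. Of 36 amino acid response and tRNA synthetase genes, 8 differed (22.2%), all positively, of which 6 were lost with V16D changes of -0.08 to -0.46. Their MR49F values were 0.01 to 0.22 and did not pass the test. In PSAT1 (-0.09 and 0.22), SLC3A2 (-0.08 and 0.21) and PSPH (-0.12 and 0.13) the MR49F value was the larger in size. SLC7A11, the cystine transporter, was opposite (-0.18 and 0.28) and DDIT4, an inhibitor of mTOR signalling, was new (0.01 and 0.34). That count ranged from 2 to 12 over the other settings and left-out libraries.

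Few cell cycle and ribosome genes differed between the lines. Of 48 DNA replication genes, 39 were lower in V16D and 16 in MR49F with medians of -0.20 and -0.13, 15 were kept and 24 unresolved, and 1 differed. That gene was RRM2, a ribonucleotide reductase subunit, which stood at 320, 312 and 312 CPM and 244, 236 and 228 CPM in V16D and at 284, 274 and 259 CPM and 234, 239 and 228 CPM in MR49F (difference 0.19 ± 0.06, edgeR adjusted p = 0.042). Over left-out libraries the count of the list ran from 0 to 6, with 4 positive and 2 negative without replicate 3 of MR49F with vehicle and 3 positive without replicate 1, and RRM2 lost its call in 10 of the alternative settings. Kept members included MCM3, MCM4, MCM5, MCM7, CDC6, CDC45 and TYMS. Of 45 mitosis genes, 27 were lower in V16D and 12 in MR49F with medians of -0.09 and -0.12, and none had a called difference by edgeR, with 10 at an unadjusted p under 0.05 and 0 called by DESeq2 or by limma on FPKM. Of these, 11 were kept, among them MKI67, PLK1, FOXM1 and TPX2. Leaving out replicate 1 or replicate 3 of MR49F with vehicle gave 5 and 6 negative differences in this list. Of 30 ribosome biogenesis genes, 19 were lower in V16D and 3 in MR49F, and none differed by edgeR, with 0 at an unadjusted p under 0.05 and 0 by DESeq2 or limma. The cyclin-dependent kinase inhibitor CDKN1A was the 1 of 16 G1 genes that differed, with 48.4, 48.7 and 45.0 CPM going to 60.4, 56.7 and 56.1 CPM in V16D and 176, 180 and 176 CPM against 160, 161 and 171 CPM in MR49F (difference -0.40 ± 0.06, edgeR adjusted p = 0.000257).

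**Figure D3:**
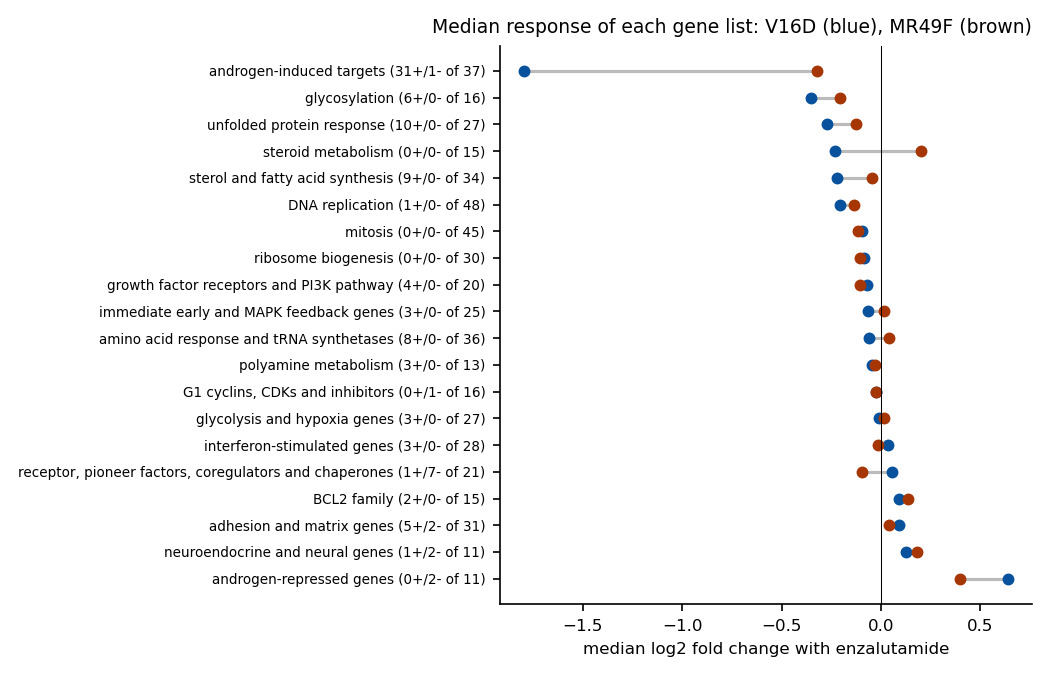
For each gene list, the median log2 fold change with enzalutamide over its tested members in V16D and in MR49F, with the number of positive and negative called differences beside the list's name. The androgen-induced list is at -1.79 in V16D and -0.32 in MR49F, while DNA replication (-0.20 and -0.13) and mitosis (-0.09 and -0.12) lie close together.

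Among steroid receptor cofactors and chaperones most called differences were negative. Of 21 tested coregulators, pioneer factors, related receptors and chaperones, 8 differed (38.1%), 7 of them negatively. NCOA3, NCOA2 and GATA2, steroid receptor coactivators and a pioneer factor, rose in V16D by 0.62, 0.30 and 0.39 and were lost, while HOXB13 rose by 0.37 and 0.18 and was reduced. NR3C2, the mineralocorticoid receptor, was the positive one, with 17.6, 19.5 and 18.6 CPM going to 8.68, 9.48 and 10.5 CPM in V16D and 7.97 to 9.46 CPM in all MR49F samples (difference 1.04 ± 0.13, edgeR adjusted p = 1.21e-05). HSPA8, a constitutive chaperone, stood at 3606, 3458 and 3568 CPM and 3683, 3793 and 3650 CPM in V16D and at 4264, 3718 and 3556 CPM and 3277, 3205 and 3210 CPM in MR49F. Its highest MR49F value is that of replicate 1 with vehicle, and its difference of -0.32 was -0.23 without that sample. STIP1 was new and DNAJA1 differed without a call in either line. Without replicate 3 of MR49F with vehicle, 11 members had a negative difference, and without replicate 2 of V16D with vehicle 4 did. By limma on FPKM 3 or 4 did, depending on the filter and the pseudocount.

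Of 20 tested genes for growth factor receptors and PI3K signalling, 4 differed (20%), all positively. That count ran from 4 to 8 over the other settings and left-out libraries, some of which called 1 or 2 negative differences. INPP4B, a phosphatase that restrains PI3K signalling, went from 20.1, 18.5 and 19.6 CPM to 2.63, 2.09 and 2.90 CPM in V16D and from 18.2, 15.2 and 15.4 CPM to 8.80, 8.61 and 7.47 CPM in MR49F (difference 1.95 ± 0.16, edgeR adjusted p = 4.61e-08). IGF1R, the receptor of insulin-like growth factor, went from 296, 287 and 295 CPM to 86.0, 90.3 and 86.0 CPM and from 337, 334 and 323 CPM to 266, 273 and 278 CPM (difference 1.46 ± 0.05, edgeR adjusted p = 5.92e-14). Of its substrates, IRS1 was reduced and IRS2 lost, with V16D changes of -1.06 and -1.13 and MR49F values of -0.31 and -0.03.

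The remaining lists are given by their counts. In polyamine metabolism 3 of 13 differed (23.1%), with SAT1 reduced (-1.14 and -0.28), AMD1 lost (-0.23 and 0.02) and ARG2 larger in MR49F (0.16 and 0.57). Adhesion and matrix genes had 7 of 31 (22.6%), which besides COL12A1, FN1 and SNAI2 were the lost collagens COL4A5, COL4A6 and COL5A2 and the reduced LAMC1. Among glycolysis and hypoxia genes HK2, PFKFB2 and PFKFB3 were lost, 3 of 27 (11.1%), with V16D changes of -0.24 to -0.39. Without replicate 1 of MR49F with vehicle 6 positive and 3 negative differences were called in that list, and PFKFB3 lost its call in 13 of the alternative settings. BIK (new, -0.22 and 0.60) and PMAIP1 (lost, -0.32 and 0.17), both pro-apoptotic, were the 2 of 15 (13.3%) in the BCL2 family, a count that ran from 1 to 3 over left-out libraries and was 0 with DESeq2. The immediate early and feedback genes DUSP4 (reduced, -1.30 and -0.41), PHLDA1 (opposite, -0.55 and 0.33) and ATF3 (lost, -0.42 and 0.02) were 3 of 25 (12%), and the interferon genes HERC5, IFI44 and PARP9 were 3 of 28 (10.7%), with 1 to 5 over left-out libraries. The call of the difference was lost in 14 of the alternative settings or left-out libraries for IFI44 and in 10 for PARP9. Of 11 neuroendocrine and neural genes 3 differed (27.3%), with HES6 and SYT4 lost and DDC reduced, and of 15 steroid metabolism genes none differed by edgeR, with 2 at an unadjusted p under 0.05, 0 called by DESeq2 and 1 by limma on FPKM.

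The sorted genes were then followed in stripped serum, where cells had little androgen. There DHT raised 2134 of 11004 tested genes in MR49F (19.4%) and lowered 1988 (18.1%), and enzalutamide raised 488 of 11131 (4.38%) and lowered 320 (2.87%). These are other cultures of MR49F, at the lower depth given above, and the 2 comparisons share their vehicle samples. The number of called genes depended strongly on the method. Limma on FPKM with a pseudocount of 1 called 8787 genes with DHT and 4709 with enzalutamide. On read counts edgeR called 4122 and 808. Of the 141 reduced genes lower with enzalutamide in V16D, 130 and 117 had enough reads to be tested there, and genes that reached this only through the ligand-treated group had to differ. DHT raised 121 of the 130 and lowered 2, and enzalutamide raised 69 of the 117 (59.0%) and lowered 0. At an unadjusted p under 0.05 edgeR lowered 4 of the 117, DESeq2 called 0 and limma on FPKM called 4. In the lost class of that direction DHT raised 166 of 308 and enzalutamide 86 of 306 (28.1%), with 16 and 3 lowered. In the kept class DHT raised 316 of 391 and enzalutamide 73 of 368 (19.8%), with 3 lowered by each. The median log2 fold changes with enzalutamide in stripped serum were 0.58 for reduced, 0.34 for lost and 0.17 for kept genes, against 0.00 over all genes tested in both sera, and with DHT they were 1.70, 0.50 and 0.77. Over all genes lower in V16D, called or not, enzalutamide raised 8.08% and DHT 33.7%, with medians of 0.08 and 0.22. Most lost and kept genes of this direction did not pass the test with enzalutamide, and the differences between classes were not tested. Restricted to genes that averaged at least 10 reads in the stripped-serum vehicle libraries, DHT raised 101 of 110 reduced, 149 of 289 lost and 289 of 362 kept genes, and enzalutamide raised 62 of 110, 80 of 291 and 69 of 362.

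Among genes that were higher with enzalutamide in V16D, DHT lowered 62 of 66 reduced, 146 of 249 lost and 204 of 283 kept genes, and enzalutamide lowered 32 of 67, 55 of 253 and 36 of 293. Over all genes higher in V16D, called or not, DHT lowered 30.1% and enzalutamide 4.82%. With at least 10 reads on average in the treated libraries, DHT lowered 54 of 58, 125 of 224 and 170 of 243, and enzalutamide 32 of 67, 55 of 244 and 36 of 287. Enzalutamide raised 0, 3 and 5 of all those tested by edgeR, and the 0 was also found at an unadjusted p under 0.05, by DESeq2 and by limma. In the new class, enzalutamide in stripped serum raised 1 and lowered 1 of the 37 tested genes with a new increase, and lowered 1 of the 27 with a new decrease. Of those 27 it raised 0 by edgeR, at an unadjusted p under 0.05 and by DESeq2, and 2 by limma on FPKM. Of the 23 tested opposite genes that were lower in V16D and higher in MR49F, it raised 8 and lowered 2, while DHT raised 7 and lowered 8.

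**Figure D4:**
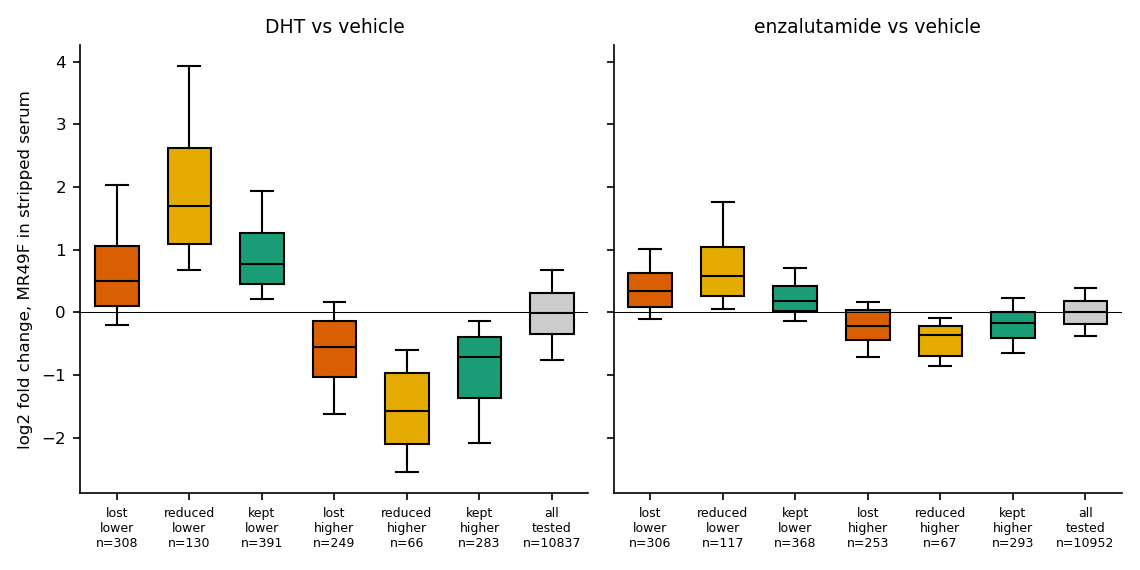
Log2 fold change in MR49F in stripped serum with DHT (left) and enzalutamide (right) for lost, reduced and kept genes, split by their direction with enzalutamide in V16D; boxes span the quartiles with the median as a line, and whiskers run between percentiles 10 and 90. With enzalutamide the medians of the genes lower in V16D are 0.34 (lost), 0.58 (reduced) and 0.17 (kept), and that of all genes tested in both sera is 0.00 (n = 10952, and 10837 for DHT).

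SLC45A3, lost in full serum, stood at 24.6, 30.2 and 21.9 CPM with vehicle in stripped serum, at 444, 423 and 446 CPM with DHT and at 239, 249 and 195 CPM with enzalutamide. The 3 groups were wholly apart, with log2 fold changes of 4.08 ± 0.12 with DHT (edgeR adjusted p = 2.09e-18) and 3.16 ± 0.15 with enzalutamide (edgeR adjusted p = 3.27e-11). KLK3 rose by 2.28 ± 0.08 (442, 511 and 486 CPM to 2252, 2308 and 2448 CPM) and by 1.54 ± 0.08 (to 1405, 1399 and 1373 CPM), and TMPRSS2 by 3.07 ± 0.11 and 2.06 ± 0.12. ST6GALNAC1, reduced in full serum, stood at 1.75, 2.11 and 0 CPM with vehicle, 282, 313 and 323 CPM with DHT and 41.8, 33.4 and 30.3 CPM with enzalutamide. Its enzalutamide level was therefore far above vehicle and far below DHT. SPDEF, kept in full serum, stood at 105, 107 and 89.0 CPM, 408, 462 and 430 CPM and 142, 128 and 112 CPM. DHT raised it by 2.1 ± 0.10 (edgeR adjusted p = 1.88e-14), and with enzalutamide the value of 0.36 ± 0.12 missed the threshold (edgeR adjusted p = 0.0807).

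NCAPD3, whose decrease was larger in MR49F, showed a wide gap between the ligands: 54.4, 47.8 and 50.2 CPM with vehicle became 1165, 1097 and 1149 CPM with DHT and 84.1, 77.6 and 75.7 CPM with enzalutamide. The rises were 4.47 ± 0.10 (edgeR adjusted p = 1.35e-20) and 0.65 ± 0.13 (edgeR adjusted p = 0.00318). DOCK10, kept as an increase, fell by 3.44 on the log2 scale with DHT, from 88.8, 78.7 and 85.8 CPM to 7.33, 7.21 and 8.60 CPM, and by 0.84 with enzalutamide, to 44.6, 46.8 and 51.1 CPM. CAMK2D, opposite in full serum, stood at 9.94, 5.62 and 6.47 CPM with vehicle, 11.7, 11.2 and 15.1 CPM with DHT and 23.5, 19.2 and 16.1 CPM with enzalutamide. It rose with enzalutamide (1.41 ± 0.29, edgeR adjusted p = 0.00448), as it did in full-serum MR49F, and its DHT value of 0.74 ± 0.32 missed the threshold (edgeR adjusted p = 0.0739). NPC1 did not repeat its full-serum rise: it fell by 1.12 with DHT and by 0.53 with enzalutamide, from 140, 132 and 153 CPM to 68.9, 69.7 and 58.1 CPM and to 93.9, 108 and 89.8 CPM.

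**Figure D5:**
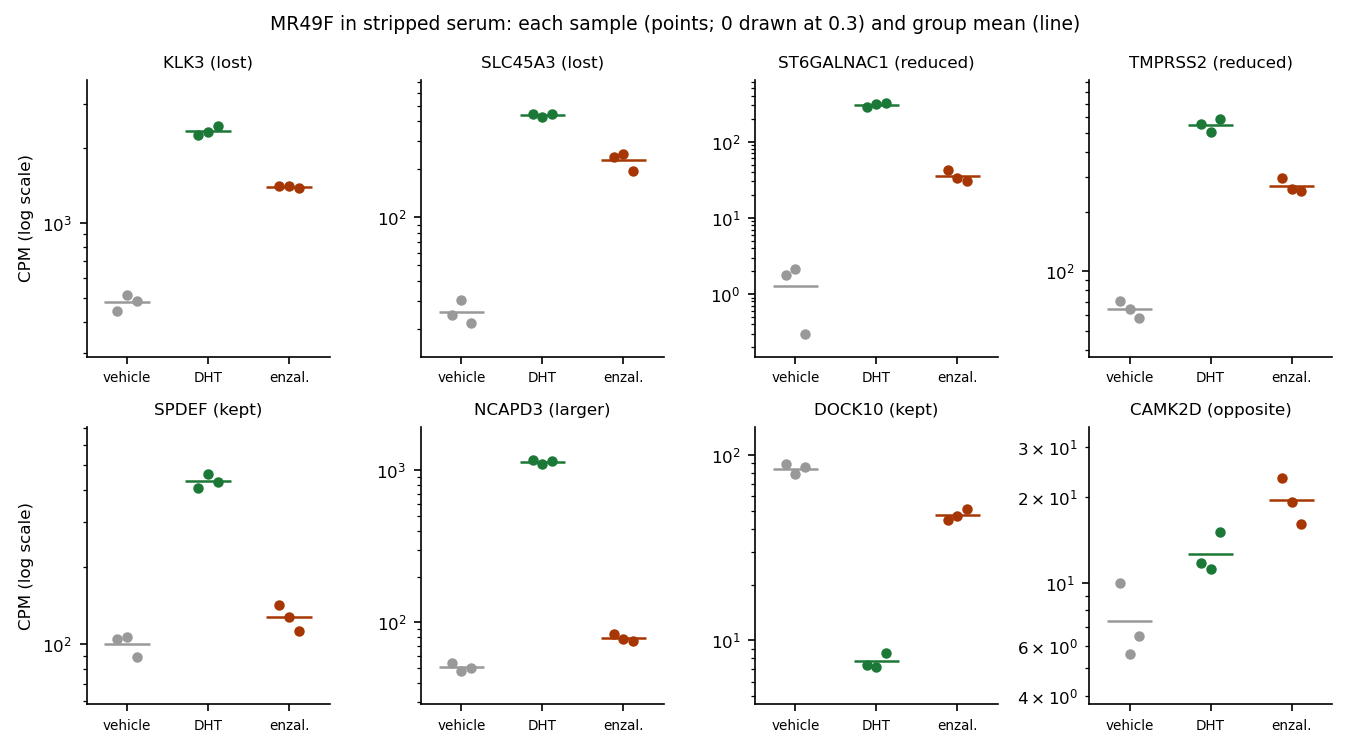
CPM on a log scale for 8 genes in MR49F in stripped serum with vehicle, DHT or enzalutamide; points are samples, lines are group means (n = 3), a value of 0 is drawn at 0.3 CPM and each panel has its own range. For SLC45A3 enzalutamide (195 to 249 CPM) lies nearer to DHT than to vehicle on the log scale, and for SPDEF (112 to 142 CPM) and NCAPD3 (75.7 to 84.1 CPM) it lies nearer to vehicle.

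The level of MR49F with vehicle was set beside both V16D groups. Of the 367 lost genes that were lower with enzalutamide in V16D, the mean MR49F level with vehicle was already at or below the V16D level with enzalutamide in 128, lay between the V16D levels in 119 and was at or above the V16D level with vehicle in 120. Of the 276 lost genes that were higher, the mean was at or past the V16D enzalutamide level in 86, between in 82 and at or past the V16D vehicle level on the other side in 108. The lost class thus mixed genes such as SLC38A4 and SOX9, which MR49F hardly expressed, with genes such as KLK2 and ADAM7, which it expressed above V16D. For the reduced decreases the 3 numbers were 12, 73 and 56, and for the kept decreases 93, 76 and 241. For reduced increases they were 16, 33 and 21, and for kept increases 92, 76 and 141. Over all genes the numbers were 2839, 929 and 3138 for those lower in V16D and 2839, 900 and 3435 for those higher, called or not. These values use the samples that defined the classes and carry no test.

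The border between lost and unresolved genes is set by the threshold on the difference. The border between lost and reduced genes is set by whether MR49F passed its own test. TMPRSS2, with -2.48 in V16D and -0.19 in MR49F, was thus reduced, and VWA2, with 1.67 and 0.48, was lost. Among genes of at least 5 CPM called in V16D only, the last inside it were CDCA7L (adjusted p = 0.0494 by edgeR) and CSAD (0.0497), both lost, and the first outside were TTYH2 (0.0504) and CLPX (0.0505), both called in V16D only. Their differences were -0.24, -0.25, -0.29 and -0.18, so no gap in size separates the lost from the unresolved genes. The 3654 unresolved V16D responses were mostly small, with 119 of at least 2-fold, and their median was -0.18 for the 1761 lower and 0.22 for the 1893 higher genes in V16D, and -0.09 and 0.11 in MR49F. Both MR49F medians have the direction of V16D, at a size that did not pass the test in MR49F.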

How the data were processed

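RNA-seq of 30 samples was deposited, of which the 12 full-serum samples and 9 stripped-serum samples of MR49F were analysed here, and the samples with JQ-1 were not used here. The libraries were strand-specific. Reads were aligned to hg19 (GRCh37) with TopHat2 2.0.9, per the submitters' processing notes. The authors deposited raw read counts per gene symbol from HTSeq, with the strand setting of the counting not stated, and FPKM for each transcript (Cufflinks 2.1.1). Transcripts of 1 symbol were added up here. Reads that fell on no gene or on more than 1 gene were left out. They made up 22.19 to 27.03% of the uniquely aligned reads in full serum and 92.49 to 94.87% in stripped serum. Reads aligned to more than 1 place were left out as well and are not in these shares. Samples were grouped by their titles.

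The test on counts was edgeR's quasi-likelihood test (version 4.0.16, R 4.3.3) after TMM scaling and filterByExpr (at least 10 reads, 15 in total), at a Benjamini-Hochberg adjusted p of at most 0.05. Each line was fitted on its own 6 samples, and the difference between the lines on all 12. Intervals for genes with few reads are exact 95% intervals and cover counting error only. On simulated counts with 160 differences among 14412 genes, 156 were recovered with 8 false calls. There, 196 of 200 changed genes fell in their class. These were simulated as lost, kept, new or opposite, from genes well above the read minimum and without an outlying replicate. No reduced or larger genes were simulated, so the split of lost from reduced genes was not covered. The accuracy of the classes in the measured samples was not tested. Alternatives were DESeq2 1.42.0, limma 3.58.1 on log2(FPKM + 1) or log2(FPKM + 0.1), limma-voom with group weights, other filters and size factors, a 12-sample fit of both lines, a 1.5-fold minimum, a replicate block, and leaving out each sample.

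Named were KLK3, TMPRSS2 and MYC, the 6 genes of largest fold change per class (in V16D for lost, reduced and kept, in MR49F for the others, and per direction for lost and kept) with at least 5 CPM in 1 group and no overlap in the lines that called them, and up to 4 members per list with the largest called differences. Some genes that these rules name are not reported here. Other list members and genes at the class border were named after their values were seen. The classes, members and gene lists were chosen with earlier results of these data known. Promoters are from RefSeq (GRCh38.p14), and gene positions are from GENCODE release 44 mapped to GRCh37.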

Additional observations from a re-analysis of the deposited data

Results flagged for a closer look

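The 1006 genes whose response differed between V16D and MR49F are themselves a difference between groups under the same treatment. Genes that moved in opposite directions in the lines, with the difference itself tested by edgeR, were CHST2 (-1.40), CAMK2D (1.15), NPR3 (1.56), NPC1 (0.70), PTGFR (0.54) and RELN (0.78) on the log2 scale. The call within V16D was lost in 4 alternative settings or left-out libraries each for CHST2 and PTGFR and in 1 for NPR3. The call within MR49F was lost in 4 each for NPR3 and RELN, in 3 each for NPC1 and PTGFR and in 1 for CAMK2D. No explanation was tested. By list, a called difference was found in 32 androgen-induced targets, 8 steroid receptor cofactors and chaperones, 9 sterol and fatty acid genes, 10 unfolded protein response genes and 8 amino acid response genes.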

How the results depend on the processing

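The number of genes that differed between the lines was within 1.5 times of 1006 under every alternative apart from left-out libraries, with a range of 742 to 1579 (without replicate 3 of MR49F with enzalutamide and without replicate 3 of MR49F with vehicle, and 1523 without replicate 1 of the latter). The other counts ranged over left-out libraries from 4577 to 4829 in V16D, 406 to 2533 in MR49F, 3503 to 4056 with DHT and 414 to 910 with enzalutamide in stripped serum, and from 472 to 881 lost, 117 to 394 reduced, 226 to 1349 kept, 7 to 61 larger, 22 to 232 new and 11 to 82 opposite genes. DESeq2 called 3489 genes in V16D, 2720 with DHT and 366 with enzalutamide in stripped serum, and put 10 genes in the larger class. Fitting both lines' responses on all 12 samples gave 2558 genes in MR49F, 10 larger, 123 new and 52 opposite. Limma on log2(FPKM + 1), on log2(FPKM + 0.1) and without a filter gave 575, 559 and 425 genes in MR49F, 8787, 8771 and 10178 with DHT, 4709, 4680 and 4406 with stripped-serum enzalutamide, 128, 126 and 111 reduced, 304, 299 and 196 kept, 45, 34 and 38 new and 11, 11 and 5 opposite genes, and the first and second gave 8 and 6 larger. Asking for at least 1.5-fold left 231 lost, 141 kept, 6 larger, 8 new and 2 opposite genes, and dropping the filter on low counts gave 109 new genes. The difference between the lines changed sign for NPPC (-0.029), LPPR1 (0.15) and COL12A1 (0.24) with log2(FPKM + 1), with and without a filter, for DOCK10 (0.27) with it and no filter, and for SPDEF (-0.011, with a range over left-out libraries up to 0.056) without replicate 3 of MR49F with vehicle. The cause was not tested. Of the values of named genes under all alternatives, 4124 kept their direction and side of the threshold, 277 no longer passed it, 15 newly passed it and 8 changed sign.

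The deviations of samples with the same replicate number did not correlate above 0.1 in every pair of any comparison (correlations of -0.040 to -0.0031 in V16D, -0.017 to 0.049 in MR49F, -0.094 to 0.046 with DHT and -0.0071 to 0.18 with enzalutamide in stripped serum), so the numbers were not taken to pair them. In stripped serum with enzalutamide the same-number pairs averaged 0.086 and the other pairs -0.043. A fit with the replicate number as a block gave 973 genes that differed between the lines, 5137 in V16D, 1235 in MR49F, 3909 with DHT and 1323 with enzalutamide in stripped serum, and 617 lost, 197 reduced, 742 kept, 15 larger, 71 new and 34 opposite genes.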
